A study of Mus musculus with 141 samples.

Results

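The 10 genes described here, *Clec4f*, *Vsig4*, *Cd5l*, *Timd4*, *Marco*, *Ear2*, *Mrc1*, *Cd68*, *Csf1r* and *Mertk*, are genes of tissue macrophages. They were chosen by name, and each was found once among the 24423 genes of every file. Expression was measured by RNA-seq in unsorted liver, lung and kidney from 47 Collaborative Cross (CC) strains, a panel of recombinant inbred mice descended from a common set of founder strains. Every strain was represented by 1 male mouse aged 8 to 12 weeks and by 1 library per tissue, so that there were 3 groups of 47 libraries. All mice received the NTP 2000 diet and breathed clean air in mesh chambers for 6 h per day on weekdays over 2 weeks. A strain is thus 1 animal, a difference between 2 strains carries no replicate, and the p-values of the tissue comparisons measure the spread between mice. In these bulk samples fewer macrophages and less RNA of a gene per macrophage cannot be told apart. The median library held 10423382 counts in liver (lowest 1738046, highest 42158454), 9338124 in lung (2829104 and 17585682) and 8245850 in kidney (3046695 and 15028553). The labelled tissues carried their defining markers: all 5 hepatocyte genes, all 4 tested lung epithelium genes and all 5 kidney tubule genes on the marker lists were called higher in their own tissue than in both others. In a single library 3 counts or fewer were taken as unresolved, a limit of 0.288, 0.321 and 0.364 CPM (counts scaled to the library total) at the median depth of liver, lung and kidney.

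Macrophages reside in every organ and take on an organ's own program. Kupffer cells line the liver sinusoids and clear particles, microbes and aged cells from portal blood, and alveolar macrophages sit at the air surface of the lung and clear surfactant and inhaled material. Kupffer cells depend on signals through a growth factor receptor, CSF1R. Both cell types recognise their cargo through scavenger, lectin, complement and phosphatidylserine receptors. *Clec4f* encodes a C-type lectin of mouse Kupffer cells, *Vsig4* a complement receptor that binds C3 fragments, *Cd5l* a secreted scavenger-receptor protein (AIM) and *Timd4* a phosphatidylserine receptor for dying cells. *Marco* encodes a scavenger receptor for particles and bacteria, and *Ear2* a ribonuclease of the eosinophil-associated family that mouse alveolar macrophages also make. *Mrc1* encodes the mannose receptor, which liver sinusoidal endothelium carries as well, *Cd68* a lysosomal membrane protein, *Csf1r* the CSF1 and IL34 receptor and *Mertk* a receptor tyrosine kinase that engulfs dying cells through GAS6 and PROS1.

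On the build of the files (NCBIM37, GENCODE vM1 annotation), *Clec4f* lies at chr6:83594536-83606181 on the minus strand, *Vsig4* at chrX:93442542-93488777 on the minus strand, *Cd5l* at chr3:87161803-87174996 on the plus strand and *Timd4* at chr11:46624302-46657834 on the plus strand. *Marco* lies at chr1:122371115-122401661 on the minus strand and *Ear2* at chr14:44680319-44681199 on the plus strand. *Mrc1* (chr2:14151041-14253684, plus) and *Mertk* (chr2:128524692-128628630, plus) share a chromosome, as do *Timd4* and *Cd68* (chr11:69477715-69479655, minus). *Csf1r* lies at chr18:61265226-61291803 on the plus strand. The longest annotated transcript ran from 719 bases in 2 exons for *Ear2* to 5352 bases in 30 exons for *Mrc1*. In 9 members every 50-base window within an exon occurred once in the genome. *Ear2* was the exception, with 303 of 623 windows (48.6%) occurring once.

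The sequence behind that exception is shown here, because the authors counted uniquely aligned reads of 50 bases. *Ear2* and its paralog *Ear1* hold an identical run of 96 bases inside their coding exons, at chr14:44680722-44680817 on the plus strand and at chr14:44396809-44396904 on the minus strand (NCBIM37).

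Ear2 and Ear1: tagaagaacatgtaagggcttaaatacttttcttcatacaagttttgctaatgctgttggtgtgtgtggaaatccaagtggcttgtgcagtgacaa

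Of the 670 windows of the *Ear2* transcript, 158 (23.6%) were also in the transcript of *Ear1* and 174 (25.97%) in that of *Ear10*, while 0 were in that of *Ear14*. A read that falls in the printed run could have come from either gene, so the level of *Ear2* is uncertain.

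Promoter windows of RefSeq (GRCm38.p6, 250 bases before to 50 after the transcript start) were matched for 9 of the 10 members. The windows shown belong to *Clec4f*, *Vsig4* and *Cd5l*, which were far higher in liver and varied together there, and to *Marco* and *Mrc1*, which carry a PU.1-type match. PU.1 is a lineage factor of macrophages. The capitals mark GAGGAAG, a PU.1-type motif, read on either strand. The windows lie at chr6:83656067-83656366 (minus), chrX:96293389-96293688 (minus), chr3:87357631-87357930 (plus), chr1:120504975-120505274 (minus) and chr2:14229164-14229463 (plus).

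Clec4f: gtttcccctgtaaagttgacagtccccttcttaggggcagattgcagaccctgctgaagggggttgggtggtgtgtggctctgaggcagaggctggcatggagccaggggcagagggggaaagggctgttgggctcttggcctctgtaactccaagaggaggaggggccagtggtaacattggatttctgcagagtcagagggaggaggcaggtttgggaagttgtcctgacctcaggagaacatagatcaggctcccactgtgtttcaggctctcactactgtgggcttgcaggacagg

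Vsig4: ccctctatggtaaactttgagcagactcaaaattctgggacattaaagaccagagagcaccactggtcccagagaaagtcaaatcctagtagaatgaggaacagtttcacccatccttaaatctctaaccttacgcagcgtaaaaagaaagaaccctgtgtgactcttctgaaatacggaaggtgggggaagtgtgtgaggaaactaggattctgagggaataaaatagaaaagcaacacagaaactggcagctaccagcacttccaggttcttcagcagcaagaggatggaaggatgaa

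Cd5l: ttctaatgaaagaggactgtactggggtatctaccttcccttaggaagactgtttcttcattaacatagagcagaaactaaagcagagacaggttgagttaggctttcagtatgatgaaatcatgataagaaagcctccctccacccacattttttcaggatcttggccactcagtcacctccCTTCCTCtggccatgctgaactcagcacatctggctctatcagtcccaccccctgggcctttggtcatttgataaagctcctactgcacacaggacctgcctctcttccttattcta

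Marco: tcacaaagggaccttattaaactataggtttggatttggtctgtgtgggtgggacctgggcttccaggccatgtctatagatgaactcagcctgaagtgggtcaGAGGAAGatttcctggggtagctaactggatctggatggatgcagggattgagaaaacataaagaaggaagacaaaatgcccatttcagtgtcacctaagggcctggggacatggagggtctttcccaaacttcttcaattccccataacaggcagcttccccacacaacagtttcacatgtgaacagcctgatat

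Mrc1: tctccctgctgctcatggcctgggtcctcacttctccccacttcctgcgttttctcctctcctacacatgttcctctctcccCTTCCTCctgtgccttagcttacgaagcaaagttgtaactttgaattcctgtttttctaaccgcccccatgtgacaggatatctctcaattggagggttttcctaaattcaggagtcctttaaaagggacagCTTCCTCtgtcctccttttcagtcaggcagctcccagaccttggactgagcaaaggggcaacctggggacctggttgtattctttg

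GAGGAAG was found in 3 of the 9 windows, those of *Cd5l*, *Marco* and *Mrc1*, against 13.6% of all 32851 RefSeq windows of this length. TATAAA was found in 0 of the 9, against 13.6% of all windows. The windows of *Clec4f* and *Vsig4* held neither motif. These matches describe the letters only.

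*Clec4f*, *Vsig4*, *Cd5l* and *Timd4* were higher in liver than in lung and kidney. Liver *Clec4f* ranged from 26.1 to 190 TPM over the strains (median 79.1), where TPM is a level per transcript length. In lung its median was 0.11 TPM and its highest value 2.40, and in kidney the median was 0 and the highest 0.94. Every liver library lay above every lung and kidney library. *Cd5l* had a like level in liver, with a median of 73.5 TPM from 23.5 in CC033 to 307 in CC016. Its lung median was 1.06 TPM, with CC068 alone above 10, at 21.1, and its kidney median was 0.10 TPM. The ranges of liver and lung did not overlap for *Cd5l* either. Liver *Vsig4* had a median of 30.95 TPM (10.2 to 89.0), against 1.19 in lung (0 to 4.78) and 0 in kidney (0 to 0.99), again with no overlap of liver with the others. *Timd4* was lower than these 3 in liver, from 1.22 to 16.9 TPM (median 4.57), and its lung level came close to it, from 0 to 8.60 TPM (median 2.85). Liver and lung thus overlapped for *Timd4*, whereas its kidney values, 0 to 0.83 TPM (median 0.12), stayed under every liver value.

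In the comparison of liver with lung, 4 members were called higher in liver and 3 higher in lung (limma-voom with strain in the model, Benjamini-Hochberg q at or under 0.1 and a log2 fold change of 1 or more either way). Over all 12127 genes tested, 23.9% were called higher in liver and 31% higher in lung. On total counts and both TPM scales 5 members were called higher in lung, with *Csf1r* and *Mertk* added. On the log2 scale of TMM-normalized CPM, *Clec4f* was 10.26 ± 0.12 (SE) higher in liver, with means of 122 ± 39.1 CPM in liver and 0.10 ± 0.18 in lung (SD, n = 47 each; limma-voom q = 2e-92). *Cd5l* differed by 7.12 ± 0.12 (119 ± 82.1 against 0.98 ± 1.74 CPM, limma-voom q = 1.1e-75) and *Vsig4* by 6.10 ± 0.10 (29.7 ± 12.9 against 0.45 ± 0.32 CPM, limma-voom q = 2.2e-78). *Timd4* differed by 2.32 ± 0.16 (7.28 ± 5.06 against 1.498 ± 0.90 CPM, limma-voom q = 1.7e-25). All 4 were higher in the liver of 47 of 47 mice on this scale. Below, CPM is TMM-normalized, except that pooled CPM, the filter on low values and limits of 3 counts use library totals. For *Timd4* the scale mattered: on TPM it was higher in the liver of 34 mice and in the lung of 13, and the log2 difference was 0.67 on log2(TPM + 1) and 0.95 on log2(TPM + 0.1), below the fold threshold.

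**Figure D1:**
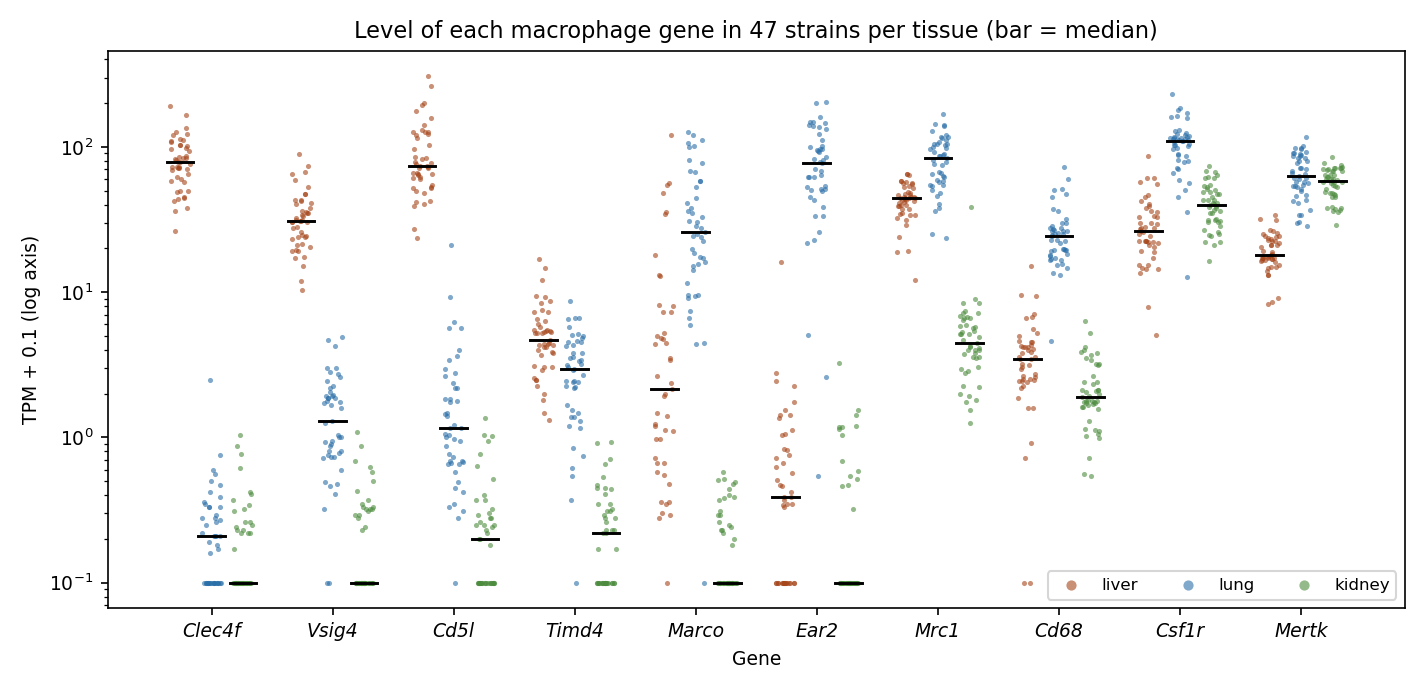
Level of the 10 genes in 47 liver, 47 lung and 47 kidney libraries, as TPM plus 0.1 on a log axis, with each point a strain and each black bar the median. *Clec4f*, *Vsig4* and *Cd5l* stand apart in liver, *Ear2* in lung, and *Csf1r* and *Mertk* are measured in all 3 tissues.

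Against kidney, 7 members were called higher in liver, all of those resolved except *Csf1r* and *Mertk*, beside 15.6% of all tested genes. With TMM scaling none was called higher in kidney, where 20.8% of all tested genes were called, and the 2 exceptions had q under 0.1 but folds under the threshold. On total counts and both TPM scales 6 members were called higher in liver and 1, *Mertk*, higher in kidney. *Ear2* had a median at or under 3 counts in both tissues and is left out of this count. *Cd5l* was 9.77 ± 0.15 higher (log2, SE) in liver than in kidney, *Vsig4* 8.15 ± 0.11, *Timd4* 5.55 ± 0.17 and *Clec4f* 10.09 ± 0.12, each in 47 of 47 mice. Between lung and kidney, 7 members were called higher in lung and none in kidney, where 25.5% and 20.6% of all tested genes were called higher in lung and in kidney. *Clec4f* was unresolved there. *Timd4* was 3.22 ± 0.17 higher in lung (45 of 47 mice), *Cd5l* 2.65 ± 0.14 (43 of 47) and *Vsig4* 2.05 ± 0.11 (42 of 47). Medians of the log2 difference were taken over resolved members only, without *Ear2* for liver against kidney and without *Clec4f* for lung against kidney. Comparing liver with lung, the median of 10 members was 0.17, beside -0.06 over all genes tested. With 9 members each, it was 5.54 in liver relative to kidney and 3.05 in lung relative to kidney. Over all genes tested the matching values were -0.003 and 0.04.

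The low reads of these genes outside liver were set beside those of hepatocyte genes. Summed over the 47 lung libraries, *Clec4f* had 56 counts, which is 0.166% of its pooled liver CPM (95% Poisson interval of the lung count, 0.125% to 0.215%). *Alb*, the albumin gene, stood at 0.164% and *Apoa1*, a lipoprotein gene, at 0.151%. In kidney the 3 percentages were 0.122%, 0.124% and 0.111%, so *Clec4f* lay within counting error of *Alb* in both tissues. *Vsig4* lay above both hepatocyte genes, at 3.75% (3.35% to 4.198%) in lung and 0.373% (0.2497% to 0.535%) in kidney. *Cd5l* stood at 2.15% (1.99% to 2.32%) in lung but at 0.150% (0.109% to 0.201%) in kidney, the kidney value close to those of *Alb* and *Apoa1*. *Timd4* stood at 52.2% in lung and 3.20% in kidney. The intervals cover counting error only, and how the hepatocyte reads came to be in lung and kidney libraries was not tested. Genes of lung epithelium were read in the same way: *Sftpc*, of surfactant-making cells, stood at 0.0898% of its lung CPM in liver and 0.0934% in kidney, and *Scgb1a1*, of club cells, at 0.0731% and 0.0748%. *Ear2* stood at 1.03% (0.834% to 1.25%) in liver, where CC016 gave 36 of its 100 counts, and *Marco* at 23.7%. In kidney *Marco* stood at 0.242% and *Ear2* at 0.371% of their lung CPM.

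**Figure D2:**
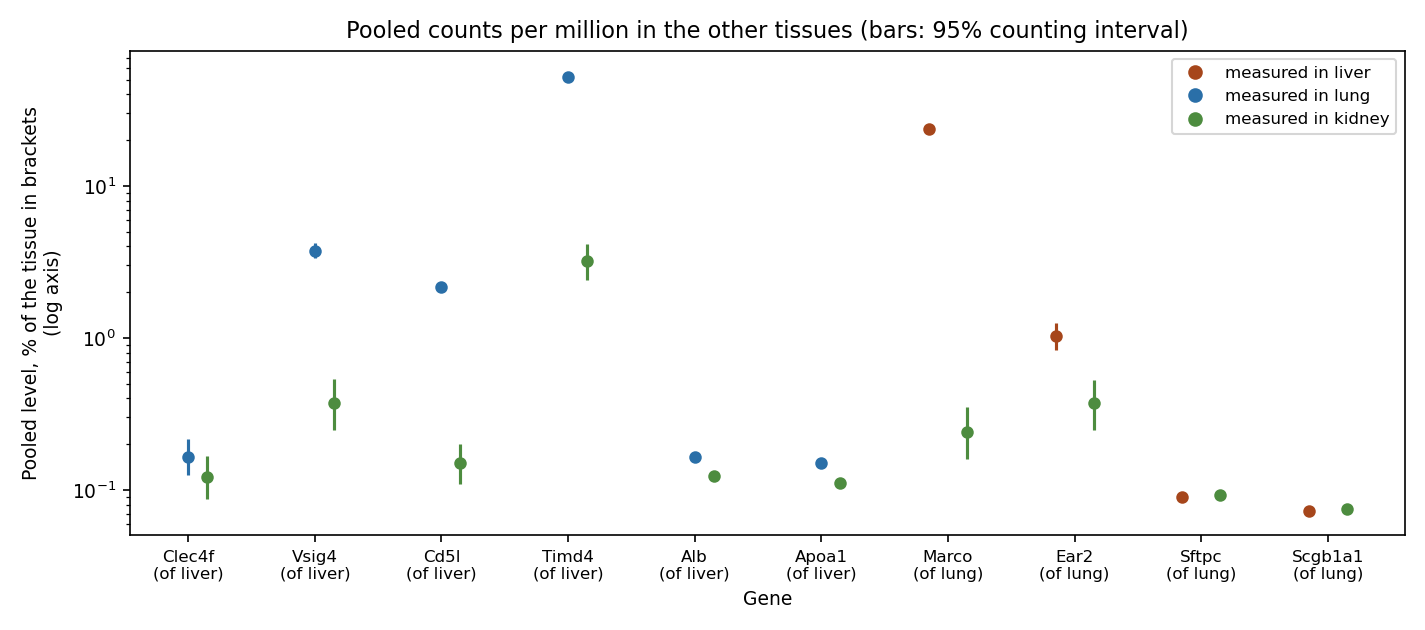
Pooled CPM of each gene in the tissues where it is lower, as a percent of the tissue in brackets on a log axis, with bars for the 95% Poisson interval of the count in the measured tissue. *Clec4f* lies with *Alb* and *Apoa1* at 0.111% to 0.166%, while lung *Vsig4*, *Cd5l* and *Timd4* lie at 2.15% to 52.2%.

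*Marco* and *Ear2* were higher in lung. *Ear2* had a median of 77.0 TPM in lung (0.44 to 205), 0.29 in liver (0 to 16.1) and 0 in kidney (0 to 3.16). Its lung range overlapped with liver only through a few libraries at the ends, since 46 of 47 lung libraries and 5 of 47 liver libraries were over 3 counts. *Ear2* was 5.10 ± 0.19 lower in liver than in lung (log2, SE) and higher in lung in 47 of 47 mice (limma-voom q = 1.1e-46), and 6.66 ± 0.19 higher in lung than in kidney (47 of 47, limma-voom q = 6.2e-56). Its paralog *Ear1*, with 35.01% of windows occurring once, had a lung median of 46.6 TPM and a median of 0 in liver and kidney. *Ear10* had a lung median of 0.64 TPM, and *Ear3*, *Ear12* and *Ear14* were listed at 0 in every library. *Marco* ranged from 0 to 127 TPM in lung (median 25.8) and from 0 to 121 in liver (median 2.04), so the ranges of both tissues overlapped almost fully. In kidney all 47 libraries were at or under 3 counts. *Marco* had means of 13.3 ± 32.7 TMM-normalized CPM in liver and 16.4 ± 12.2 in lung (SD, n = 47 each), beside pooled CPM on library totals of 6.69 and 28.3. With TMM it was 1.22 ± 0.43 lower in liver than in lung (log2, SE; limma-voom q = 0.006), and was higher in lung in 35 of 47 mice and higher in liver in the other 12. The difference ranged from -3.20 to -1.05 over the alternatives tried, and it was -1.51 without strain CC016 (limma-voom q = 0.00036). Against kidney, *Marco* was 5.54 ± 0.45 higher in liver (45 of 47 mice) and 6.77 ± 0.45 higher in lung (46 of 47).

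*Cd68* was also higher in lung. Its median was 24.3 TPM in lung (4.52 to 72.6), 3.37 in liver (0 to 14.95) and 1.79 in kidney (0.44 to 6.21). The difference of liver from lung was -1.33 ± 0.11 (log2 CPM, SE), with lung higher in 43 of 47 mice (limma-voom q = 2.6e-21). *Cd68* was 3.05 ± 0.11 higher in lung than in kidney (47 of 47) and 1.72 ± 0.11 higher in liver than in kidney (42 of 47), and the latter fell under the fold threshold on total counts (0.71) and on log2(TPM + 1) (0.51). *Cd68* was the only member that the files list with more than 1 transcript, and genes of that kind sat lower throughout: in liver 17.8% of them had a median over 1 TPM, against 43.3% of genes with 1 transcript.

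*Mrc1*, *Csf1r* and *Mertk* were measured in every library of all 3 tissues. *Mrc1* had a median of 84.3 TPM in lung (23.3 to 168), 44.1 in liver (12.0 to 65.3) and 4.36 in kidney (1.16 to 38.6). It was 4.14 ± 0.07 higher in liver than in kidney and 3.55 ± 0.07 higher in lung than in kidney (log2 CPM, SE, 47 of 47 mice in both). Between liver and lung it was 0.59 ± 0.07 higher in liver with TMM scaling (44 of 47 mice), but lower in liver by 0.77 on total counts, by 0.87 on log2(TPM + 1) and by 0.89 on log2(TPM + 0.1), so its direction follows the scaling. *Csf1r* had a median of 110 TPM in lung (12.5 to 232), 39.4 in kidney (16.3 to 74.1) and 26.2 in liver (4.98 to 86.8). With TMM scaling its log2 differences were -0.41 ± 0.07 for liver against lung, 0.86 ± 0.07 for lung against kidney and 0.45 ± 0.07 for liver against kidney, none past the fold threshold, and the last turned to -0.54 on total counts and on log2(TPM + 1) and to -0.56 on log2(TPM + 0.1). On these 3 scales *Csf1r* passed the threshold for liver against lung, at -1.79, -1.86 and -1.90, and for lung against kidney, at 1.25, 1.32 and 1.34. *Mertk* had a median of 62.6 TPM in lung (28.5 to 116), 58.4 in kidney (28.7 to 85.2) and 17.9 in liver (8.14 to 33.97). Its log2 differences were -0.26 ± 0.06 for liver against lung and -0.61 ± 0.06 for liver against kidney, and that of lung against kidney was -0.35 ± 0.06 but 0.07 on total counts and 0.16 on both TPM scales. On total counts, log2(TPM + 1) and log2(TPM + 0.1) *Mertk* passed the threshold for liver against lung (-1.62, -1.68 and -1.73) and for liver against kidney (-1.55, -1.53 and -1.57), and its TPM was lower in liver than in both other tissues in 47 of 47 mice. The order of lung and kidney for *Mertk* thus changed with the scaling, while liver was the lowest on each scale tried.

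Liver libraries differed from the others in composition: 5 hepatocyte genes summed to a median of 86642 TPM in liver, 126 in lung and 355 in kidney, and the median TMM factor was 0.643, 1.94 and 1.32. The median log2 fold change of all 12127 genes for liver against lung was -0.06 with TMM scaling, -1.44 on total counts, -1.21 on log2(TPM + 1) and -1.52 on log2(TPM + 0.1). Of all calls in that comparison, 43.5% were higher in liver with TMM and 13.7% on total counts, and for liver against kidney the shares were 42.9% and 14.5%. For lung against kidney, 55.2% of calls were higher in lung with TMM and 68.8% on total counts. Relative to the median gene of the same fit, *Mrc1* was 0.65 higher in liver than in lung with TMM, 0.66 on total counts and 0.34 on log2(TPM + 1). By the same measure *Csf1r* stood at -0.36 with TMM, -0.36 on total counts and -0.65 on log2(TPM + 1), and *Mertk* at -0.21, -0.19 and -0.47, so the order of the 3 genes against the median gene was kept on these scales.

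**Figure D3:**
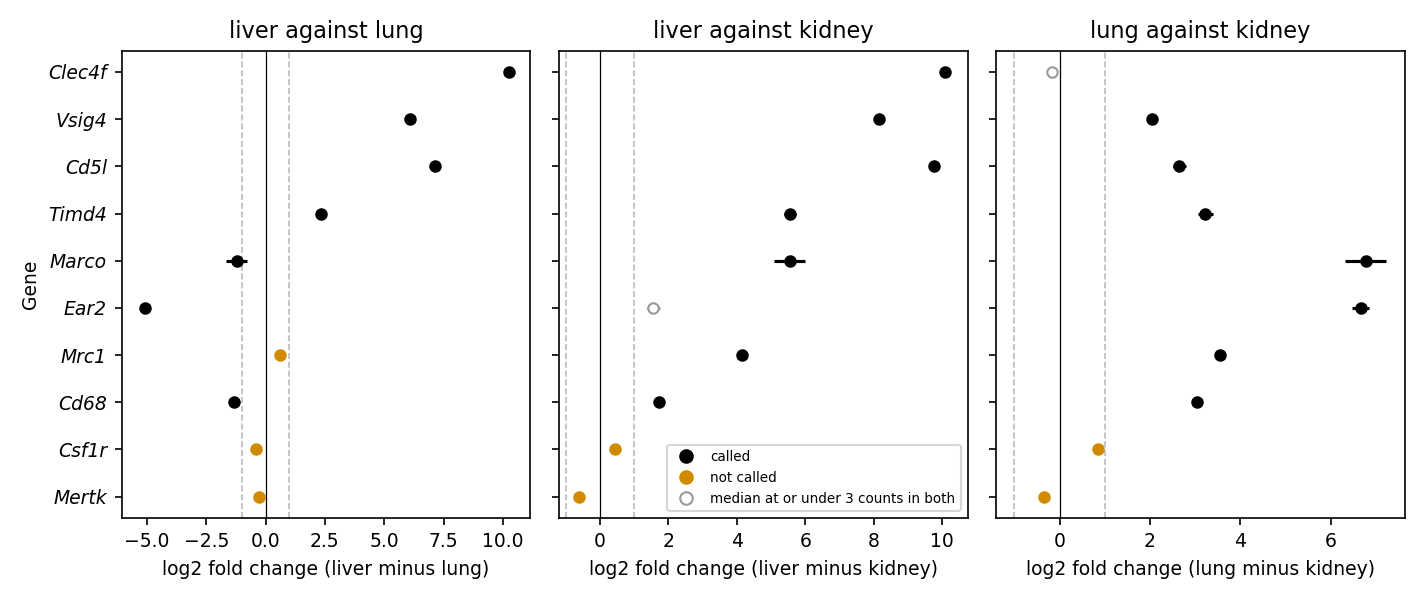
Log2 fold change with its SE (horizontal bar, often within the point) of each gene in the 3 tissue comparisons with TMM scaling, dashed lines at -1 and 1. *Clec4f*, *Vsig4*, *Cd5l* and *Timd4* lie to the right in both liver panels, *Marco*, *Ear2* and *Cd68* to the left for liver against lung, and the small differences of *Mrc1*, *Csf1r* (liver against kidney) and *Mertk* (lung against kidney) change sign on total counts.

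A ratio within a library does not depend on scaling between libraries, so each member was also divided by *Csf1r* of the same library (log2 of TPM, offset 0.1). In liver the median log2 ratio was 1.59 for *Cd5l*, 1.53 for *Clec4f*, 0.63 for *Mrc1*, 0.21 for *Vsig4* and -2.50 for *Timd4*, so the first 4 exceeded *Csf1r* per length. In lung the highest medians were those of *Mrc1* (-0.31), *Ear2* (-0.35), *Mertk* (-0.66) and *Marco* (-1.73), all under *Csf1r*. In kidney *Mertk* alone exceeded *Csf1r*, at 0.55. *Timd4* relative to *Csf1r* was greater in the liver than in the lung of 47 of 47 mice, with a median difference of 2.60, and *Mrc1* relative to *Csf1r* was higher in liver in 45 of 47, with 1.06. *Cd68* relative to *Csf1r* was higher in lung in 42 of 47 mice (median difference -1.03 for liver minus lung), *Marco* in 35 and *Ear2* in all 47. *Mertk* relative to *Csf1r* was higher in kidney than in liver in 44 of 47 mice and higher than in lung in 45 of 47.

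Some ligands and partners of the receptors differed between tissues as well. *Gas6*, the MERTK ligand, was 2.36 ± 0.10 lower in liver than in lung (36.2 ± 11.8 against 184 ± 63.6 CPM, SD, n = 47 each, limma-voom q = 3.6e-41) and lower than in kidney (191 ± 60.8 CPM) by 2.37 ± 0.10. *Pros1*, the second MERTK ligand, had 113 ± 37.3 TMM-normalized CPM in liver, 87.4 ± 11.1 in lung and 25.2 ± 6.80 in kidney. On TPM its medians were 56.4, 128 and 24.4, so the order of liver and lung changed with the scale. The lowest tissue differed between the ligands: liver was lowest for *Gas6*, and kidney was lowest for *Pros1* by 2.15 ± 0.06 against liver. *C3*, whose fragments VSIG4 binds, was 4.14 ± 0.10 higher in liver than in lung and 7.46 ± 0.10 higher than in kidney (11513 ± 3032, 657 ± 187 and 82.4 ± 97.6 CPM, 47 of 47 mice in both). *Mfge8*, a bridging protein for phosphatidylserine, was 3.44 ± 0.13 lower in liver than in lung (0.47 ± 0.40 against 5.41 ± 1.85 CPM). The CSF1R ligands *Csf1* and *Il34* and the receptors *Axl* and *Tyro3* did not pass the filter on low values: their highest median was 0.96 TPM (*Csf1* in lung), and the files list each with more than 1 transcript. Of the 9 genes of this list that were tested, 3 were called higher in liver and 3 in lung, 4 in liver and 2 in kidney, and 6 in lung and 1 in kidney. Over all tested genes the shares in the same order were 23.9% and 31%, 15.6% and 20.8%, and 25.5% and 20.6%.

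Other marker lists were set beside the members (members left out, medians over the tested genes). Over all tested genes, 23.9% were called higher in liver than in lung and 31% higher in lung. Of 5 tested Kupffer cell genes, 3 were called higher in liver than in lung (median log2 fold change 3.87): *Slc40a1*, the iron exporter, by 4.64 ± 0.07, *Fcna*, a ficolin, by 4.03 ± 0.13, and *C6*, a complement component that hepatocytes also make, by 3.87 ± 0.08. The other 2 were not called. All 7 tested alveolar macrophage genes were called higher in lung (median -5.45). The largest changes were those of *Chil3*, a chitinase-like protein (-7.74 ± 0.24), *Car4*, a carbonic anhydrase also of lung capillaries (-7.28 ± 0.17), and *Krt79* (-6.08 ± 0.20). *Chil3* and *Krt79* had medians at or under 3 counts in liver and in kidney. They thus passed the filter on low values through lung, and their direction was set beforehand. *Car4* was not limited to lung in this way, with a kidney median of 162 TPM. Of 14 tested genes shared by macrophages, 4 were called higher in liver and 6 in lung (median -0.49), with *Lyz2*, lysozyme, at -5.41 ± 0.13 and *Laptm5* at -2.56 ± 0.13. The same 14 gave 13 calls higher in liver and 11 higher in lung against kidney, with none higher in kidney. Over all tested genes the calls against kidney were 15.6% for liver and 25.5% for lung, with 20.8% and 20.6% higher in kidney. Monocyte (5 of 5 tested), neutrophil (3 of 3) and dendritic cell genes (5 of 5) were called higher in lung than in liver, so genes of other myeloid cells moved with the lung members. The summed level of the 7 monocyte genes ran from 8.11 to 81.2 TPM in liver (median 23.3) and from 44.2 to 1032 in lung (median 250), and that of the 8 neutrophil genes from 0 to 108 in liver (median 3.67) and from 7.97 to 1819 in lung (median 130). All 8 neutrophil genes had a median at or under 3 counts in liver and in kidney. The 3 tested thus passed the filter through lung, and their direction was set beforehand. The part of these other myeloid cells in the lung values was not tested. Some defining genes were low: *Folr2* and *Cd163* of Kupffer cells had medians at or under 3 counts in liver, and so did *Pparg* and *Fabp5* of alveolar macrophages in lung. *Siglecf* was over that limit in lung, at a median of 0.55 TPM (0 to 1.95), and 0 in liver and kidney. All 5 are listed with more than 1 transcript.

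Genes of endothelium were set beside *Mrc1*. Of 8 tested genes of sinusoidal and other endothelium, 4 were called higher in liver than in lung and 4 higher in lung. These counts stand beside 23.9% and 31% of all tested genes. *Oit3* and *Clec4g*, both of liver sinusoids, were 6.27 ± 0.10 and 6.27 ± 0.09 higher in liver, and *Stab2*, a sinusoidal scavenger receptor, 5.98 ± 0.10. The summed level of the 9 listed genes had a median of 242 TPM in liver, 1206 in lung and 79.5 in kidney, the order that *Mrc1* had on TPM, whereas with TMM *Mrc1* was 0.59 higher in liver than in lung. The part of endothelium in the *Mrc1* values was not tested.

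Between strains, the members differed widely in how much they varied. The SD of log2 CPM over the 47 livers was 0.21 for *Mrc1* and 0.31 for *Mertk*, both under the median of 0.42 over 9875 genes with at least 1 CPM. It was 0.47 for *Clec4f*, 0.54 for *Vsig4*, 0.72 for *Cd5l*, 0.75 for *Timd4* and 2.40 for *Marco*, a spread larger than that of 99.3% of genes in liver. In lung, *Marco* (1.63), *Ear2* (1.33) and *Timd4* (1.13) varied more than 97.01% to 98.9% of 10914 genes, while *Csf1r* (0.37), *Mrc1* (0.36) and *Mertk* (0.36) lay close to the median of 0.34. In kidney *Mertk* varied little (0.19, more than 10.7% of genes) and *Mrc1* varied more (0.76), beside a median of 0.36 over 10302 genes. These are spreads of single mice, and counting error adds to those of the low genes.

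Liver *Marco* was carried by a few mice. CC016 had 121 TPM, CC004 had 56.0, CC005 had 54.2 and CC039 had 47.8, whereas the median was 2.04 TPM and 10 of 47 livers were at or under 3 counts. The CC016 liver stood out for more than *Marco*. It was the highest of 47 for *Cd5l* (307 TPM), *Timd4* (16.9), *Cd68* (14.95), *Csf1r* (86.8) and *Ear2* (16.1), but *Clec4f* (72.1) and *Vsig4* (19 TPM) lay under their medians. Genes of other myeloid cells moved with it: *S100a8*, of neutrophils, was 84.4 TPM against a median of 2.12, *Ly6c2*, of monocytes, 13.9 against 0.84, and *Ccr2*, also of monocytes, 11.3 against 0.98, each the highest of 47 livers. The CC039 liver was the highest of 47 for *Clec4f* (190 TPM) and the second highest for *Cd5l* (261 TPM). In that liver *S100a8* was listed at 0 and *Ccr2* at 0.75 TPM. The CC039 liver held 2237484 counts, where 3 counts would be 1.34 CPM, against 12388185 in CC016, so a low level of *S100a8* would be unresolved there. The part of these cells in the *Marco* values was not tested.

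Lung *Marco* and *Ear2* had their own low strains. The CC037 lung had 0 counts of *Marco* among 3375073, where 3 counts would be 0.889 CPM, and 0 of *Timd4*, while its *Csf1r* was 117 TPM and its *Ear2* 51.2 TPM. The same mouse had 13 TPM of *Marco* and 5.20 TPM of *Timd4* in liver, and its alveolar genes *Chil3* (536 TPM, median 538) and *Itgax* (42.4, median 45.4) were near the lung medians. *Ear2* was 0.44 TPM (1 count) in the CC055 lung, 2.52 TPM (5 counts) in CC068 and 4.97 TPM (9 counts) in CC025, and the next strain stood at 21.5 TPM. *Ear1* was 26.8, 23.8 and 82.8 TPM in these 3 lungs (median 46.6), so *Ear2* was far below its paralog there. The 3 lungs were not alike in other ways: CC025 was the highest of 47 for *Chil3* (5152 TPM), *Itgax* (111) and *Krt79* (102), while CC068 was the lowest for *Chil3* (2.03 TPM) and the highest for *Cd5l* (21.1). In kidney CC020 stood alone for *Mrc1*, at 38.6 TPM against 8.88 for the next strain.

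**Figure D4:**
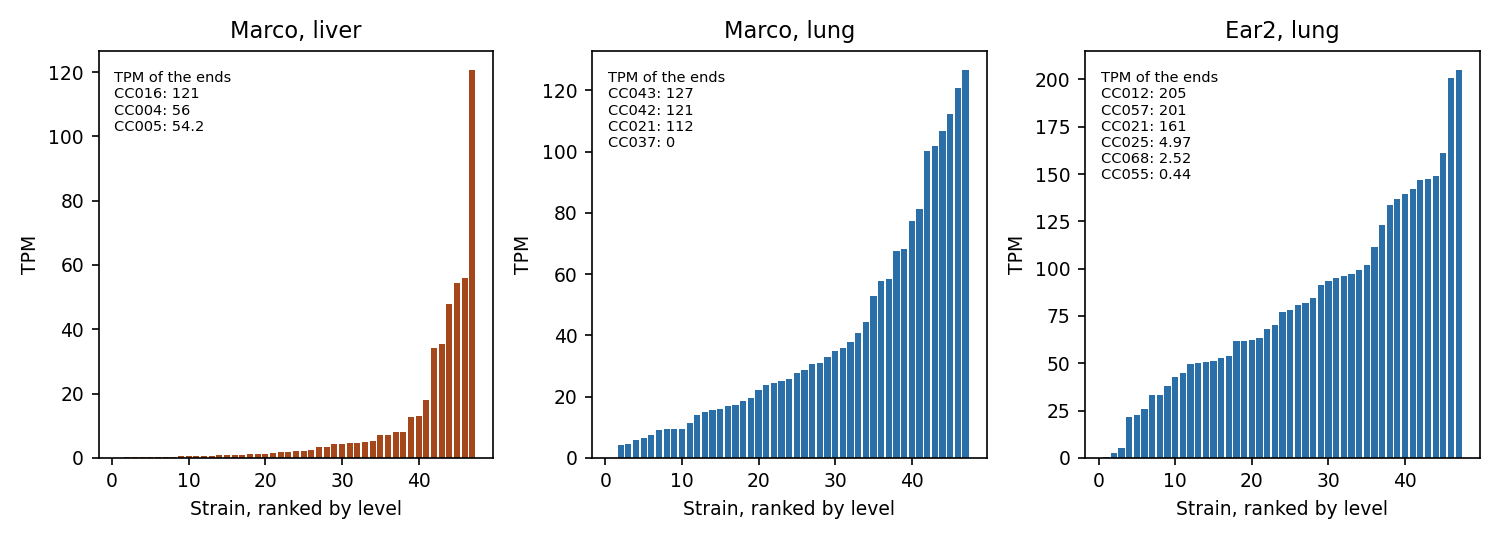
TPM of *Marco* in liver, *Marco* in lung and *Ear2* in lung, with 1 bar per strain ranked by level and the values of the ends printed in each panel. Liver *Marco* is near 2.04 TPM at the middle and reaches 121, and lung *Ear2* has 3 strains at or under 4.97 TPM before a step to 21.5.

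Which livers were low depended on the scale. On TPM, CC033 was the lowest of 47 livers for 6 members and among the 5 lowest for 7 of 9 resolved members, and CC029 was among the 5 lowest for all 9. On TMM-normalized CPM, CC033 was among the 5 lowest for 1 member and among the 5 highest for 2, and CC029 among the 5 lowest for 2. *Clec4f* in CC033 was 26.1 TPM against a median of 79.1, but 121 CPM with TMM against a median of 117. The CC015 lung was likewise among the 5 lowest for 6 of 9 members on TPM and for 2 with TMM, and its *Csf1r* was 42.2 CPM with TMM against a median of 84.9. The CC037 lung went the other way, with 4 members on TPM and 6 with TMM. Among high livers, CC016 was among the 5 highest for 6 members on TPM and 7 with TMM, and CC004 for 7 and 8 of 9.

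Within liver, the members varied together between strains. Correlations were computed on log2 TMM CPM over the 47 strains for members with a median over 3 counts, with permutation tests (100000 resamples, two-sided, smallest p 1e-05) and Benjamini-Hochberg adjustment over all 116 correlations computed. Of the 36 pairs of 9 members in liver, 32 were positive at q at or under 0.1 and none was negative, with r from 0.20 to 0.78 (median 0.47), and 25 were also called by Spearman's rho. In liver the 95th percentile of r over all 9874 other genes ran from 0.26 for *Mrc1* to 0.38 for *Cd68* among the 9 members. The share of all gene pairs that would pass was not computed. *Cd5l* and *Timd4* had the highest r, 0.78 (permutation p = 1e-05, q = 0.000166, rho 0.78, permutation p = 1e-05), and r stayed at 0.69 without the 2 strains farthest from the median of *Cd5l*. *Cd5l* and *Csf1r* followed with r = 0.78 (rho 0.67, permutation p = 1e-05 for both) and 0.67 without the 2 farthest. *Clec4f* with *Cd5l* gave r = 0.74 (rho 0.77), *Clec4f* with *Vsig4* 0.71 (rho 0.67) and *Vsig4* with *Cd5l* 0.70 (rho 0.80), each with permutation p = 1e-05 for r and rho. *Cd5l* with *Marco* gave r = 0.70 (rho 0.64, permutation p = 1e-05 for both) and 0.60 without the 2 farthest strains. The 4 pairs that were not called were *Clec4f* with *Mrc1* (r = 0.22) and *Mertk* (0.20), and *Mrc1* with *Cd68* (0.28) and *Csf1r* (0.26). Leaving out CC016 left 27 of 36 called, and *Csf1r* with *Mertk* (r = 0.32, rho 0.09) was 0.03 without the 2 farthest strains, so that pair rests on them.

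In lung fewer pairs passed with TMM scaling, and the number moved with the scaling. Of 36 pairs of 9 members (*Ear2* in place of *Clec4f*), 7 were positive and 1 negative at q at or under 0.1, with r from -0.33 to 0.49 (median 0.10), and 3 were also called by rho. *Cd68* with *Csf1r* gave r = 0.49 (permutation p = 0.00043, q = 0.00312; rho 0.47, permutation p = 0.00114) and *Cd5l* with *Timd4* 0.46 (permutation p = 0.00137, q = 0.00691; rho 0.43, permutation p = 0.00241), and both kept r at 0.50 and 0.47 without the 2 farthest strains. *Timd4* with *Mrc1* (r = 0.41, permutation q = 0.0184; rho 0.26, permutation p = 0.0715) and *Marco* with *Mrc1* (r = 0.39, permutation q = 0.0284; rho 0.11, permutation p = 0.473) dropped to 0.26 and 0.10 without them, so these rest on those strains. *Marco* with *Timd4* (0.32, permutation q = 0.0796; rho 0.04, permutation p = 0.786) became -0.03 without them, and both genes were at 0 in CC037. *Ear2* with *Cd5l* was negative (r = -0.33, permutation q = 0.0698), but rho was -0.08 (permutation p = 0.585) and r -0.17 without the 2 farthest. *Marco* with *Ear2*, both alveolar genes, gave r = 0.04 (permutation p = 0.779; rho 0.21, permutation p = 0.164). On total counts 31 of 36 pairs passed, on log2(TPM + 0.1) 22 and on rank inverse normal values 4. The share of all gene pairs that would pass on each scale was not computed. Whether liver and lung differ in these correlations was not tested.

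**Figure D5:**
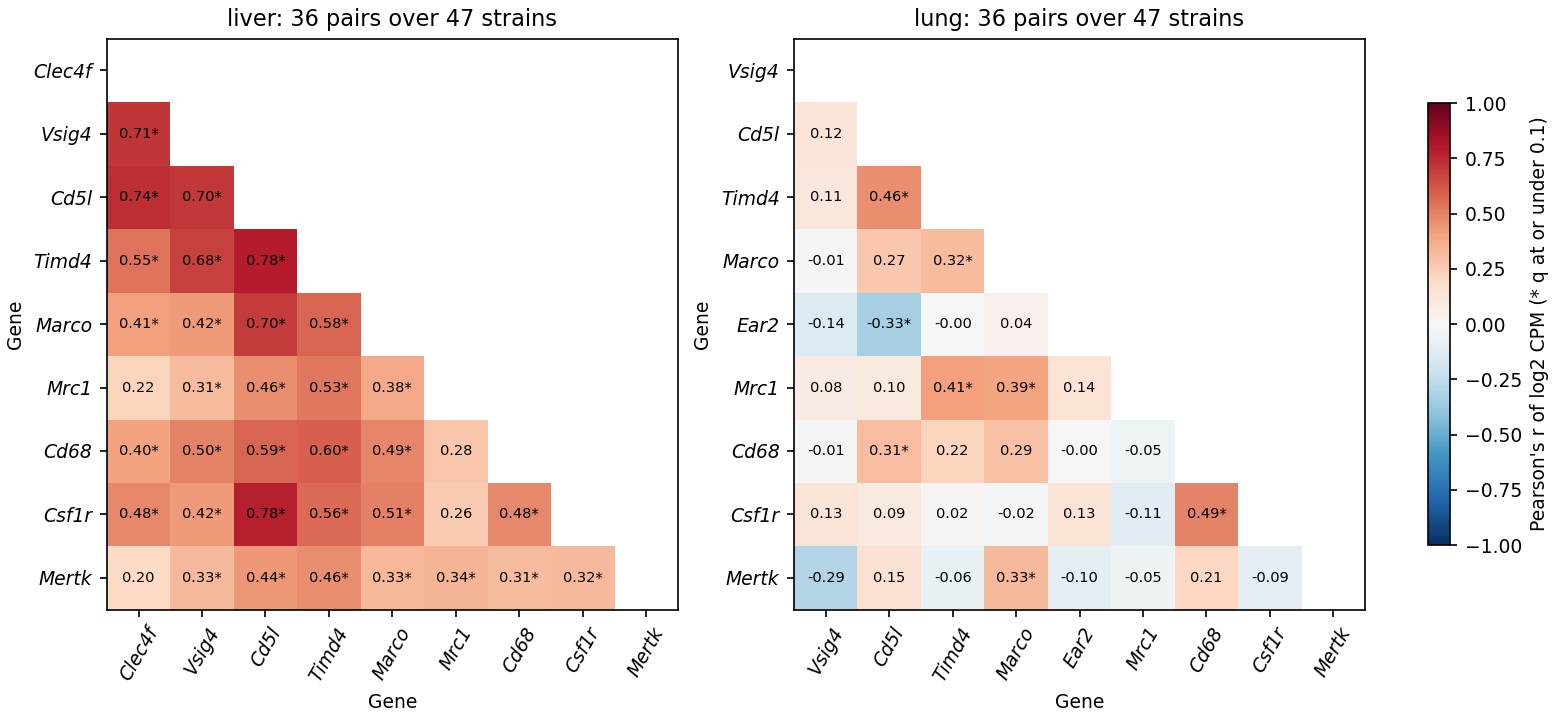
Pearson's r of log2 CPM (TMM) between members over 47 strains, in liver at left and lung at right, with colour and number giving r and an asterisk marking permutation q at or under 0.1. Liver has 32 of 36 pairs marked and lung 8 of 36, a count that becomes 31 in lung when total counts replace TMM.

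In kidney, 4 members were resolved and 3 of 6 pairs passed. *Cd68* with *Csf1r* gave r = 0.57 (permutation p = 3e-05, q = 0.000348; rho 0.58, permutation p = 2e-05) and 0.60 without the 2 farthest strains. *Mrc1* with *Csf1r* (r = 0.41, permutation q = 0.0173) and with *Cd68* (0.38, permutation q = 0.0283) dropped to 0.24 and 0.25 without them, and leaving out CC020 left 1 of the 6 pairs called. *Cd68* with *Csf1r* was thus positive and called in liver (r = 0.48, permutation q = 0.00933), lung and kidney. *Mertk* was not called with any member in kidney (r from -0.24 to 0.05).

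The level of a gene in 1 tissue of a mouse was then set against its level in another. Of 16 correlations of a gene with itself between tissues, 3 passed. *Csf1r* gave r = 0.49 between liver and lung (permutation p = 0.00074, q = 0.00429; rho 0.59, permutation p = 2e-05; 0.49 without the 2 farthest) and 0.40 between lung and kidney (permutation q = 0.0199; rho 0.38, permutation p = 0.00822; 0.38 without them). *Cd68* gave 0.40 between liver and kidney (permutation q = 0.0193; rho 0.38, permutation p = 0.00795; 0.31 without them). *Marco* gave r = -0.08 between liver and lung (permutation p = 0.601; rho -0.01, permutation p = 0.963), and *Timd4* 0.22 (permutation p = 0.144; rho 0.12, permutation p = 0.405). These values depended on the scaling: on total counts none of the 3 passed, with *Csf1r* at r = 0.03 between liver and lung and 0.14 between lung and kidney and *Cd68* at 0.24, and the 1 that passed was *Csf1r* between liver and kidney (r = 0.29, permutation q = 0.0816). On log2(TPM + 0.1) *Csf1r* stood at 0.13 between liver and lung and 0.20 between lung and kidney.

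Depth is the technical measure that the files give, and 4 of 22 correlations of members with log2 total counts passed: *Mertk* in lung (r = 0.38, permutation q = 0.0305), *Cd5l* in lung (0.32, permutation q = 0.0698), *Timd4* in lung (0.30, permutation q = 0.0942) and *Cd68* in liver (0.33, permutation q = 0.0731). By rho only the first 2 passed (0.41 and 0.45, permutation p = 0.00483 and 0.00175). Without libraries under 5000000 counts, 22 liver pairs, 2 lung pairs and 1 kidney pair were called. Sequencing batches, which the study's methods include in its mapping, are not assigned in the labels and were not analysed, so no within-batch value is given.

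The genes whose pattern over strains was most like each member were listed for the tissue with its highest mean TMM-normalized CPM, as a description. On pooled CPM by library totals, *Mrc1* (155 in lung, 87.7 in liver) and *Mertk* (83.6 in lung, 77.3 in kidney) were instead highest in lung. In liver, out of 9874 other genes, *Clec4f* was nearest to *Cfp* (r = 0.74), the properdin gene of the complement system, then to *Cd5l* (0.74) and *Vsig4* (0.71). The 3 nearest to *Vsig4* were all members, *Clec4f* (0.71), *Cd5l* (0.70) and *Timd4* (0.68). *Cd5l* was nearest to *Cfp* (0.88), *C1qb* (0.86) and *C1qa* (0.86), and *Timd4* to *Cd53* (0.81), *Cd5l* (0.78) and *Fgr* (0.78). *Mrc1* was nearest to *Plxnc1* (0.59), *Cdyl2* (0.54) and *Pros1* (0.54), with *Timd4* the nearest member. These values can be read against the 99th percentile of r over all genes, which was 0.40 for *Clec4f*, 0.40 for *Vsig4*, 0.57 for *Cd5l*, 0.55 for *Timd4* and 0.38 for *Mrc1*.

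In lung, out of 10913 genes, *Csf1r* was nearest to *Tnfrsf1b* (0.83), *Cd300lb* (0.81) and *Slc11a1* (0.78), and *Cd68* to *Itgb2* (0.70), *Fcer1g* (0.67) and *Ctsz* (0.64), among them receptors and lysosomal genes of myeloid cells. *Marco* was nearest to *Dhx15* (0.62), *Smpdl3a* (0.59) and *Tmem167* (0.59), and *Ear2* to *Eapp* (0.58), *Ibtk* (0.55) and *Dhrs7* (0.54). The nearest genes of *Marco* and *Ear2* in lung thus held no member and no gene of the alveolar list among the first 3. Part of this was set beforehand, because genes with low values were not compared. Of the 13 alveolar genes that are not members, 6 did not pass the filter and could not appear, *Ear1* among them. *Clec4f*, *Vsig4* and *Cd5l* were not among the genes compared in lung either. In liver, where *Cd5l* was among the 9874 genes compared, *Marco* was nearest to it (0.70). In kidney *Mertk* was nearest to *Slc27a2* (0.62), a fatty acid transporter, *Sppl2a* (0.58) and *Slc6a20b* (0.57), out of 10301 genes.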

How the data were processed

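RNA-seq was analysed for liver, lung and kidney of 47 CC strains (1 mouse each). The authors aligned 50-base reads with STAR 2.5.3a to strain-specific versions of mm9 and quantified them with RSEM, from uniquely aligned reads, and they deposited an expected count and a TPM per gene and library. Expected counts were rounded (25 values were not whole). Genes above 1 CPM in 30% or more of the libraries were tested with limma-voom (limma 3.58.1, TMM from edgeR 4.0.16, R 4.3.3) with strain and tissue terms. The tissues of a strain come from the same mouse: deviations of same-mouse libraries had a median correlation of 0.166, 0.173 and 0.211 in the 3 tissue pairs, against -0.005, -0.006 and -0.006 for other mice. Correlations over strains used log2 TMM CPM (prior count 1) and numpy 2.4.6. On simulated data the fit recovered 200 of 200 changed genes with 0 false calls. That simulation changed 200 of 12127 genes in liver only, in equal numbers up and down, so it cannot test the choice of scaling. Members and gene lists were chosen with earlier results of these data known. Named genes were all members, for each member the 3 genes with the largest r in its highest tissue, receptor ligands and partners, *Ear* paralogs, tissue markers, and in each other list the 3 with the largest change past the threshold between liver and lung, of which 1 is not reported here. Other genes (*S100a8*, *Ly6c2*, *Ccr2*, *Itgax* in single libraries, *C1qa* and *Cd14* on TPM, *Lyve1*, *Cdh5* and *Kdr* of endothelium, and low multi-transcript markers) were named after their values were seen. Alternatives were DESeq2 1.42.0 size factors and test, total counts, edgeR's test, TPM scales, other filters, no strain term, and strains or libraries left out, those without CC015, CC016 and CC020 being added after seeing the data. Deposited FPKM was not used, and sequencing batches were not analysed.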

Additional observations from a re-analysis of the deposited data

How the results depend on the processing

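Summed over both directions, the counts of called members stayed within 1.5 times of those given in all 36 recomputations of the tissue comparisons. With 7 of 10 or of 9 resolved members called, no rise could leave that range, so only a fall could have shown there. For single members, 309 of 336 results kept their direction and side of the threshold. With no replicate block, which drops the pairing of tissues by mouse, 7 members were called in each comparison, as with it, and no call of a single member changed. By direction, total counts and both TPM scales moved members called higher in lung than liver from 3 to 5, and higher in kidney than liver from 0 to 1. The changes came with scaling: 1 with DESeq2 size factors, where *Csf1r* passed the fold threshold for lung against kidney, 8 on total counts, and 9 on each TPM scale. *Mrc1* for liver against lung reversed to -0.77 on total counts, -0.87 on log2(TPM + 1) and -0.89 on log2(TPM + 0.1), *Csf1r* for liver against kidney to -0.54, -0.54 and -0.56, and *Mertk* for lung against kidney to 0.0704, 0.16 and 0.16. In lung, 8 pairs were called as reported, 22 on log2(TPM + 0.1), 31 on total counts, 4 on rank inverse normal values, 3 without the 2 strains farthest from the median and 2 without libraries under 5000000 counts. In kidney, 3 pairs were called as reported, 5 on log2(TPM + 0.1), 6 on total counts, 1 without the 2 farthest strains, 1 without shallow libraries and 1 without CC020. Between tissues, 3 correlations were called as reported and 1, not among those 3, on total counts. The cause of these changes was not tested, and the matching shares over all genes and gene pairs were not computed. Liver pairs stayed between 22 and 36 of 36. In kidney *Clec4f*, *Vsig4*, *Cd5l*, *Timd4*, *Marco* and *Ear2* had medians at or under 3 counts, the limit used throughout.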
